A study of Mus musculus with 9 samples.

Results

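The pentose phosphate pathway enzymes examined here are the 8 genes *G6pdx*, *H6pd*, *Pgls*, *Pgd*, *Rpia*, *Rpe*, *Tkt* and *Taldo1*, which were taken by gene symbol from a table of 17596 genes. All 8 were in the table, and all 8 passed the filter on low values, an average of 1 FPKM or more across libraries, which left 10823 genes for testing. RNA sequencing was done on primary B cells from the spleen of mice aged 6 to 8 weeks, in 9 libraries. Mb1Cre mice, labelled WT, were the control, and Mct1 f/f Mb1Cre mice, labelled cKO and written Mctf/fMb1Cre in the titles, carry in addition floxed alleles of *Mct1* (*Slc16a1* in the table), the gene of a plasma membrane transporter for lactate and pyruvate. Both genotypes carry Cre under the Mb1 promoter, which is active in the B cell lineage from its early stages, and the floxed mice were on the C57BL/6J background. Naive cells (day 0, no treatment) gave 2 control and 2 *Mct1*-deficient libraries. Cells kept for 3 days in LPS at 10 μg/ml together with IL-4 at 50 ng/ml, a mixture that drives B cells to divide and to switch antibody class, gave 2 control and 3 *Mct1*-deficient libraries. The sources do not say whether animals were pooled or whether libraries of 1 group came from separate mice, so p values measure the spread between these libraries, which may be technical.

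The pentose phosphate pathway branches from glycolysis at glucose 6-phosphate. Its oxidative branch makes NADPH, used for reductive synthesis and antioxidant defence, and ribulose 5-phosphate. Its non-oxidative branch interconverts sugar phosphates by reversible reactions, so that ribose 5-phosphate for nucleotides can be made with or without the oxidative steps and surplus pentoses can return to glycolysis. Lymphocytes that enter the cell cycle are known to need both ribose and NADPH.

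In the oxidative branch, *G6pdx* encodes glucose-6-phosphate dehydrogenase, the first and rate-limiting enzyme. *H6pd* encodes its counterpart in the endoplasmic reticulum, which also catalyses the lactonase step there. *Pgls* encodes 6-phosphogluconolactonase and *Pgd* encodes 6-phosphogluconate dehydrogenase, the second NADPH-producing step in the cytosol. In the non-oxidative branch, *Rpia* (ribose 5-phosphate isomerase) and *Rpe* (ribulose 5-phosphate epimerase) divide ribulose 5-phosphate between ribose and xylulose 5-phosphate. *Tkt* (transketolase) and *Taldo1* (transaldolase) then move carbon units between sugars and link the pentoses to glycolytic intermediates.

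The 8 genes lie on 7 chromosomes of the mouse assembly GRCm38 (GENCODE annotation), and all are protein coding. *Tkt* lies at chr14:30548359-30574720 on the forward strand and *Taldo1* at chr7:141392199-141402968 on the forward strand. *Pgd* (chr4:149149991-149166771) and *H6pd* (chr4:149979475-150009023) share the reverse strand of chromosome 4, and *G6pdx* (chrX:74409483-74429194, reverse strand) is X-linked. The other members are *Pgls* (chr8:71592176-71601092, forward strand), *Rpia* (chr6:70765720-70792232, reverse strand) and *Rpe* (chr1:66700831-66719805, forward strand). Some members share exon bases with a neighbour. *Pgls* shares 776 bases with *Niban3* on the same strand, *Rpe* shares 558 with *Kansl1l* on the opposite strand and *G6pdx* shares 418 with *Ikbkg* on the opposite strand. Reads from these bases could be counted for either gene, since the counting and its use of strand are not given in the sources used here. *Niban3* was measured at 16.8 to 108 FPKM, *Kansl1l* at 1.44 to 9.23 FPKM and *Ikbkg* at 5.92 to 9.38 FPKM. In a search of all GENCODE transcripts for another gene with at least 90% identity over 300 bases, the only further matches were *G6pd2*, an intronless copy of *G6pdx* (93.1% over 2331 bases), which did not exceed 0.04 FPKM in any library, and *Gm17823*, a processed pseudogene of *Taldo1* (94.7% over 923 bases), for which no value was used here.

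*Tkt* had the largest increase, *Taldo1* the only called decrease and *Pgd* the largest increase within the oxidative branch. *G6pdx*, the first enzyme of that branch, was not called with the values as deposited. The promoter sequences of these 4 members are shown. Each is the stretch of 250 bases before a start of the gene in RefSeq (GRCm38.p6), written 5′ to 3′ on the strand of the gene. The windows of *Tkt* and *G6pdx* lie inside the GENCODE spans given above, and that of *Pgd* lies partly inside. Capitals mark a GC box (GGGCGG or its reverse complement CCGCCC) or, in *G6pdx*, also the core of an antioxidant response element (TGACNNNGC, here on the opposite strand).
Tkt promoter, chr14:30548881-30549130, forward strand: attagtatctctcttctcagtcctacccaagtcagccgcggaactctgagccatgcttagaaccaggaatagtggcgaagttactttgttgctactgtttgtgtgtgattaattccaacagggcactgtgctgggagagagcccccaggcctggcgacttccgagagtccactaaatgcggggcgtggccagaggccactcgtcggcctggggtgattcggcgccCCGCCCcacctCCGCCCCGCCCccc
Taldo1 promoter, chr7:141391910-141392159, forward strand: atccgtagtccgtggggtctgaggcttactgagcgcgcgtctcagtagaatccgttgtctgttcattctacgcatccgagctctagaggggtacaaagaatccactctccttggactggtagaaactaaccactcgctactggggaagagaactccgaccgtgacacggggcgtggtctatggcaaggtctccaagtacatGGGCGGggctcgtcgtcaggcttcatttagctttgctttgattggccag
Pgd promoter, chr4:149166706-149166955, reverse strand, the outer of 2 starts: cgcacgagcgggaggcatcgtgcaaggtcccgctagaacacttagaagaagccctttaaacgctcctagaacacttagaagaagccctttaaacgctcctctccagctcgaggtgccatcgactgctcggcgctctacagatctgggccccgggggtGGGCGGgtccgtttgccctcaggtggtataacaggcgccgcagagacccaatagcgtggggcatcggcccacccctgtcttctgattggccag
G6pdx promoter, chrX:74428881-74429130, reverse strand: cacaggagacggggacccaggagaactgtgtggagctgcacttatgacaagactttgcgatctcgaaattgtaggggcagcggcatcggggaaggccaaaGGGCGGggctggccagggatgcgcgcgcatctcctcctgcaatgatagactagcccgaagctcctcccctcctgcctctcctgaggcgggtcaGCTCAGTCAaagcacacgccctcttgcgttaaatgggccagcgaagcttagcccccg

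All 8 members were matched in the RefSeq promoter table, and 4 motifs were searched on both strands. A GC box, the sequence bound by SP1-type factors, was found in 7 of 8 members and in 32.7% of all 32851 promoters. *H6pd* had none, and *Pgd* had it only at the outer start. The count is of genes with a match at any start, whereas the share is of single windows. The members' windows with a GC box held 54.4% (*Taldo1*) to 64.4% (*Pgls*) G and C, and the median of all promoters was 52.4%. The *H6pd* window (chr4:150003237-150003486, reverse strand) lies inside the gene span given above. The bases before the outer end of *H6pd* were therefore not searched. *Tkt* had 3, at 25 to 20, 14 to 9 and 9 to 4 bases before the start, of which the last pair overlaps by 1 base. The antioxidant response element core was found in *G6pdx* alone, 57 to 49 bases before the start, and in 10.2% of all promoters. The E-box CACGTG (6.02% of all promoters) and the TATA box TATAAA (12.4% of all promoters) were found in 0 of 8. *Tkt*, which rose, and *Taldo1*, which fell, both held a GC box. A match is a description of these letters and no sign of binding.

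The values are FPKM (fragments per kilobase of transcript, relative to all mapped fragments), which are scaled to length, so levels of different genes can be set side by side. Sequencing depth is unknown, since no read counts were used here. Library totals were 477079 to 491459 FPKM on day 0 and 547355 to 563586 FPKM on day 3. The summed level of 6 B cell markers was 4183 to 4612 FPKM on day 0 and 2182 to 2271 FPKM on day 3. Markers of myeloid and erythroid cells moved with the day, and those of other blood cells did so in part. The summed level of 12 myeloid markers was 1161 to 2354 FPKM on day 0 and 17.1 to 27.4 FPKM on day 3, and 10 of the 12 were at least 10 times higher in every day 0 library than in any day 3 library. The same held for 5 of 8 erythroid markers, of which *Hbb-bs* and *Slc4a1* were at 0 in every day 3 library, for 4 of 9 T and NK cell markers and for 1 of 4 platelet markers. The T and NK cell markers summed to 94.6 to 113 FPKM on day 0 and 86.0 to 99.6 FPKM on day 3, and *Gzma* among them rose in control B cells (log2 fold change 1.21, adjusted p = 5.13e-08 by limma), while platelet *Pf4* had -0.10 (adjusted p = 0.820). Y-linked *Ddx3y* was at 14.7 to 16.9 FPKM in all 5 day 3 libraries and at 31.1 FPKM in *Mct1*-deficient day 0 replicate 1, and the other 3 day 0 libraries had at most 0.24 FPKM, so day and sex cannot be told apart in the control. The targeted gene *Slc16a1* was at 22.6 and 23.0 FPKM in control and at 10.8, 9.81 and 9.50 FPKM in *Mct1*-deficient libraries on day 3, and on day 0 at 4.33 and 3.80 against 3.71 and 4.06 FPKM, so that it does not check the labels of day 0.

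The levels of the 8 enzymes spanned more than an order of magnitude and were ordered alike in both genotypes. On day 0 the order was *Taldo1*, *Pgls*, *Tkt*, *Pgd*, *Rpia*, *G6pdx*, *Rpe* and *H6pd*, from 148 ± 6.08 FPKM (SD, n = 2 control libraries) for *Taldo1* to 6.78 ± 0.523 FPKM for *H6pd*. On day 3 *Tkt* and *Taldo1* had exchanged places, and the other 6 kept their rank. In none of the 4 groups did the range of a member overlap that of its neighbour in the order. *Tkt*, *Pgls* and *Taldo1* ranked 366, 466 and 520 of the 10823 tested genes by mean FPKM over the 9 libraries, whereas *G6pdx* ranked 2535, *Rpe* 4376 and *H6pd* 7847. The first enzyme of the cytosolic pathway, *G6pdx*, was thus below every other member except *Rpe* and *H6pd* in each group. The 8 genes together made up 0.109 to 0.112% of the library total on day 0 and 0.121 to 0.134% on day 3. The oxidative branch took 41.5 to 43.0% of this sum on day 0 and 40.6 to 43.1% on day 3.

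**Figure D1:**
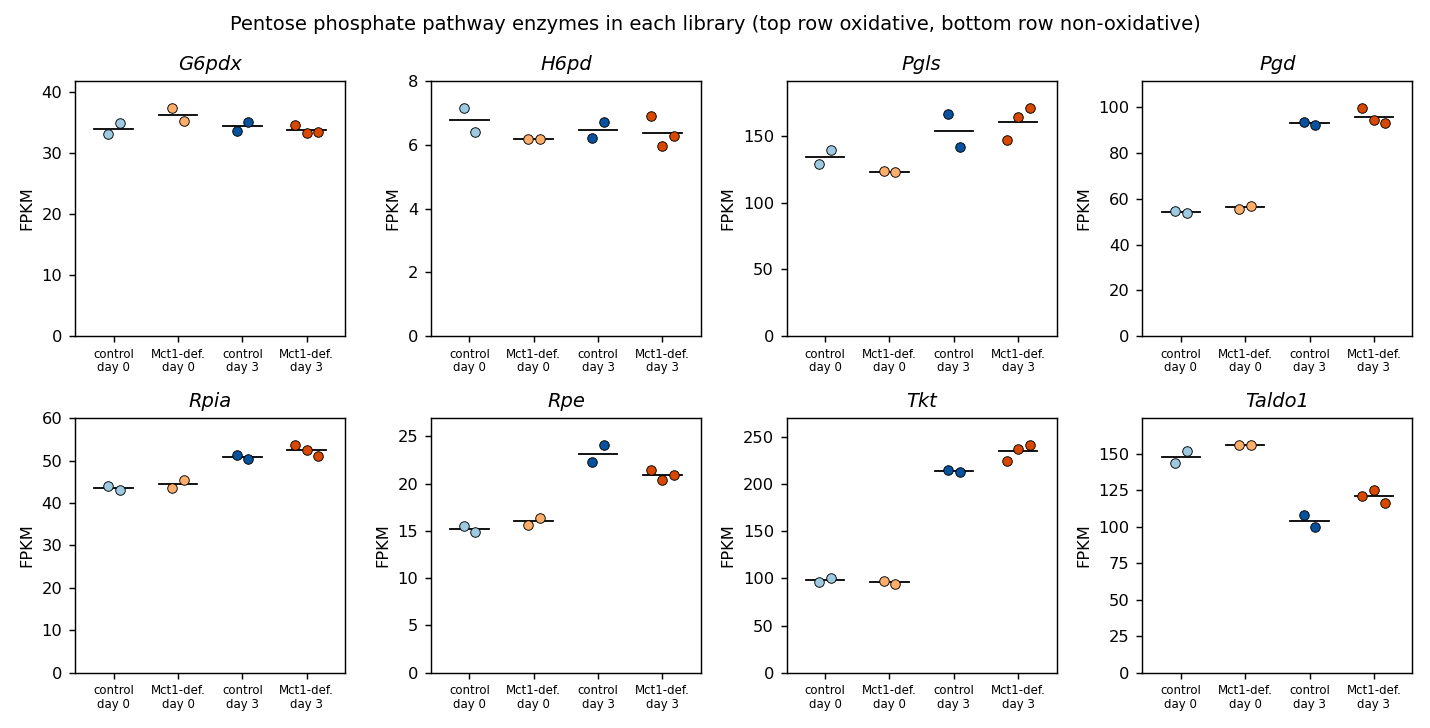
FPKM (linear axis from 0) of each pathway enzyme in the 9 libraries, 1 point per library, grouped by genotype and day, with a line at the group mean. *Tkt* moved from 94.5 to 101 FPKM on day 0 to 213 to 242 FPKM on day 3 and *Taldo1* fell, while the points of *G6pdx* lay between 33.1 and 37.4 FPKM in all groups.

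The first comparison asked which enzymes changed when naive B cells were activated, in each genotype. Of the 8 members, 5 were higher and 1 was lower on day 3 in control B cells, and the counts were also 5 and 1 in *Mct1*-deficient B cells (adjusted p under 0.05 by limma). *Pgd*, *Pgls*, *Rpia*, *Rpe* and *Tkt* rose and *Taldo1* fell in both genotypes, whereas *G6pdx* and *H6pd* did not pass the test in either with the values as deposited. Changes between the days were common among all tested genes, since 37.0% were called higher and 47.5% lower in control B cells, and 36.4% and 49.1% in *Mct1*-deficient B cells. The share of members that changed, 6 of 8, is therefore near the background. The median log2 fold change of the 8 members was 0.21 in control and 0.30 in *Mct1*-deficient B cells, against -0.12 and -0.14 for all tested genes. With a further limit of 0.5 on the size of the log2 fold change, 3 members were higher and 1 lower in control B cells (24.8% and 33.0% of all tested genes), and in *Mct1*-deficient B cells 2 were higher and 0 lower (23.4% and 33.2%). These are bulk values, so a lower share of a cell type and less RNA per cell cannot be told apart. The fall in myeloid and erythroid markers, from sums of 1161 to 2354 and 128 to 235 FPKM to sums of 17.1 to 27.4 and 4.60 to 8.07 FPKM, moved with all these changes, and its part in them was not tested.

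Within the oxidative branch, *Pgd* was the member that rose most. It was at 54.6 and 54.0 FPKM in control and 55.6 and 56.9 FPKM in *Mct1*-deficient libraries on day 0. After activation it reached 93.7 and 92.3 FPKM in control and 99.6, 94.4 and 93.2 FPKM in *Mct1*-deficient libraries. All 5 activated libraries lay above all 4 naive ones, with no value between 56.9 and 92.3 FPKM. *Pgd* changed by 0.77 on the log2 scale in control (standard error, SE, 0.0442, adjusted p = 2.16e-08 by limma) and by 0.76 in *Mct1*-deficient B cells (SE 0.0403, adjusted p = 9.82e-09).

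*G6pdx*, the enzyme upstream of *Pgd*, stayed within a narrow range. It was at 33.1 and 34.9 FPKM in control and 37.4 and 35.2 FPKM in *Mct1*-deficient libraries on day 0. On day 3 the values were 33.6 and 35.2 FPKM in control and 34.6, 33.2 and 33.4 FPKM in *Mct1*-deficient libraries. Control libraries of the 2 days overlapped, whereas the *Mct1*-deficient ones were all lower on day 3. The log2 fold change was 0.02 in control (95% interval -0.10 to 0.13, adjusted p = 0.782 by limma) and -0.10 in *Mct1*-deficient B cells (-0.20 to 0.00074, adjusted p = 0.0596). Both its sign and its call depended on the scaling. In control it was called lower with libraries scaled to the same total (-0.18, adjusted p = 0.0118), which moved the median of all genes to -0.31, and higher with median-of-ratios scaling (0.22, adjusted p = 0.0028), which moved that median to 0.06. In *Mct1*-deficient B cells it was called lower with the same total (-0.28, adjusted p = 3.65e-04), with quantile normalization (-0.13, adjusted p = 0.0273), among libraries with Y-linked transcripts (-0.14, adjusted p = 0.0311) and without *Mct1*-deficient day 0 replicate 2 (-0.14, adjusted p = 0.0409), but not with median-of-ratios scaling (0.11, adjusted p = 0.0549). *G6pdx* is X-linked. On day 0 only *Mct1*-deficient replicate 1 had Y-linked transcripts, whereas every day 3 library had them. The comparison among libraries with Y-linked transcripts thus rests on that library alone for day 0. The part of sex in the values of *G6pdx* was not tested.

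*Pgls* was among the most abundant members and varied more between libraries than *Pgd*. On day 0 it was at 129 and 139 FPKM in control and at 124 and 123 FPKM in *Mct1*-deficient libraries. Activated cells had 166 and 142 FPKM in control and 147, 164 and 171 FPKM in *Mct1*-deficient libraries. The 2 control days were separated only by the gap between 139 and 142 FPKM. *Pgls* was higher on day 3 in *Mct1*-deficient B cells (log2 fold change 0.38, SE 0.0753, adjusted p = 6.81e-04 by limma). In control B cells the change was smaller (0.19, SE 0.0825, adjusted p = 0.0461) and the call was lost without control day 0 replicate 1 (0.14, adjusted p = 0.218) or control day 3 replicate 1 (0.08, adjusted p = 0.397), and also with libraries of the same total (-0.007, adjusted p = 0.931). Over all alternatives its adjusted p ranged from 0.00153 to 0.931. *Niban3*, which shares exon bases with *Pgls*, had up to 108 FPKM, and its part in the values of *Pgls* was not tested.

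*H6pd*, the enzyme of the endoplasmic reticulum, was the member with the lowest level, at 7.15 and 6.41 FPKM in control and 6.20 and 6.18 FPKM in *Mct1*-deficient libraries on day 0. Its day 3 values were 6.22 and 6.71 FPKM in control and 6.92, 5.96 and 6.29 FPKM in *Mct1*-deficient libraries. The ranges of the days overlapped in both genotypes. *H6pd* had a log2 fold change of -0.06 in control (95% interval -0.24 to 0.12, adjusted p = 0.502 by limma) and 0.04 in *Mct1*-deficient B cells (-0.12 to 0.20, adjusted p = 0.639). It was called lower in control with libraries of the same total (-0.24, adjusted p = 0.0278), and higher in *Mct1*-deficient B cells with median-of-ratios scaling (0.23, adjusted p = 0.00966) and quantile normalization (0.31, adjusted p = 0.00119).

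In the non-oxidative branch, all 4 members passed the test in both genotypes, 3 higher and 1 lower. *Tkt* rose furthest of the 8. It was at 96.2 and 101 FPKM in control and 96.9 and 94.5 FPKM in *Mct1*-deficient libraries on day 0. After activation it was at 215 and 213 FPKM in control and at 225, 238 and 242 FPKM in *Mct1*-deficient libraries. Every activated library was above every naive one, with no value between 101 and 213 FPKM. *Tkt* rose by 1.11 on the log2 scale in control (SE 0.0463, adjusted p = 1.39e-09 by limma) and by 1.29 in *Mct1*-deficient B cells (SE 0.0422, adjusted p = 1.97e-10), a fold of 2.16 and 2.44.

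*Taldo1*, whose product works beside transketolase, went the other way. It was at 144 and 152 FPKM in control and at 156 and 156 FPKM in *Mct1*-deficient libraries on day 0. Its level on day 3 was 108 and 99.8 FPKM in control and 121, 125 and 117 FPKM in *Mct1*-deficient libraries. No activated library reached the lowest naive one. *Taldo1* fell by 0.51 on the log2 scale in control (SE 0.0525, adjusted p = 3.35e-06 by limma) and fell by 0.36 in *Mct1*-deficient B cells (SE 0.0479, adjusted p = 2.44e-05). Its log2 fold change was below 0 under every alternative run, from -0.74 to -0.30 in control.

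The isomerase and the epimerase at the entry of the branch rose by less. *Rpe* was at 15.5 and 14.9 FPKM in control and 15.7 and 16.3 FPKM in *Mct1*-deficient libraries on day 0. In activated cells it was at 22.3 and 24.1 FPKM in control and at 21.4, 20.4 and 20.9 FPKM in *Mct1*-deficient libraries. The 5 activated libraries lay above the 4 naive ones, and among them the control libraries were the highest. The log2 fold change was 0.58 in control (SE 0.0553, adjusted p = 1.70e-06 by limma) and 0.37 in *Mct1*-deficient B cells (SE 0.0504, adjusted p = 3.64e-05). *Rpia* was at 44.0 and 43.2 FPKM in control and 43.5 and 45.4 FPKM in *Mct1*-deficient libraries on day 0, and at 51.3 and 50.4 FPKM in control and 53.7, 52.5 and 51.2 FPKM in *Mct1*-deficient libraries on day 3. The days did not overlap, and the step was small. Its log2 fold change was 0.22 in control (adjusted p = 7.70e-04 by limma) and 0.23 in *Mct1*-deficient B cells (adjusted p = 2.17e-04), and neither call held when libraries were scaled to the same total (0.02, adjusted p = 0.722, and 0.06, adjusted p = 0.224).

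**Figure D2:**
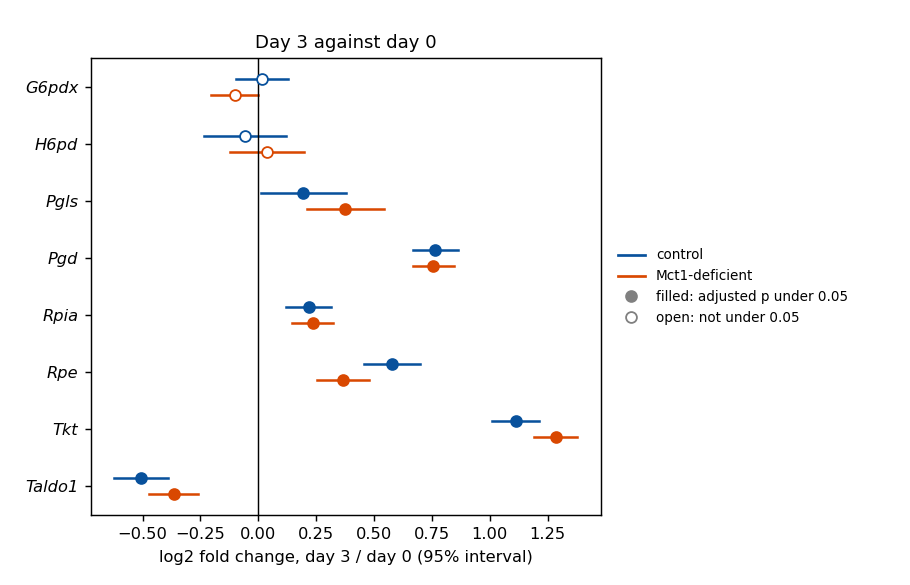
Log2 fold change of day 3 over day 0 on the log2(FPKM + 1) scale for each pathway enzyme (rows) with its 95% interval from limma, in control (blue) and *Mct1*-deficient (orange) B cells; filled points had an adjusted p under 0.05. *Tkt* lay at 1.11 and 1.29, *Taldo1* at -0.51 and -0.36, and the intervals of *G6pdx* and *H6pd* included 0.

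Ratios of 2 members within a library stay the same when all values of a library are multiplied by 1 factor. Quantile normalization is not of that kind and can change them. The ratios are given as a description. The ratio of *Tkt* to *Taldo1* was 0.670 and 0.662 in control and 0.621 and 0.606 in *Mct1*-deficient libraries on day 0. On day 3 it was 1.99 and 2.14 in control and 1.86, 1.90 and 2.07 in *Mct1*-deficient libraries. Transaldolase transcripts thus exceeded those of transketolase in every naive library, and the order was turned in every activated one. The ratio of *Pgd* to *G6pdx*, the 2 cytosolic dehydrogenases, was 1.49 to 1.65 in the naive and 2.63 to 2.88 in the activated libraries. The ratio of *Tkt* to *G6pdx* went from 2.59 to 2.91 to 6.07 to 7.23, and that of *Rpia* to *Rpe* from 2.77 to 2.90 down to 2.09 to 2.58. The days did not overlap in these 4 ratios, nor in that of *Pgls* to *Pgd* (2.16 to 2.58 on day 0, 1.47 to 1.83 on day 3). They overlapped in that of *H6pd* to *G6pdx* (0.166 to 0.216 on day 0, 0.179 to 0.200 on day 3). How often pairs of other genes separate the days was not tested. On day 3 the ratio of *Rpia* to *Rpe* was 2.31 and 2.09 in control and 2.51, 2.58 and 2.45 in *Mct1*-deficient libraries, without overlap between the genotypes.

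**Figure D3:**
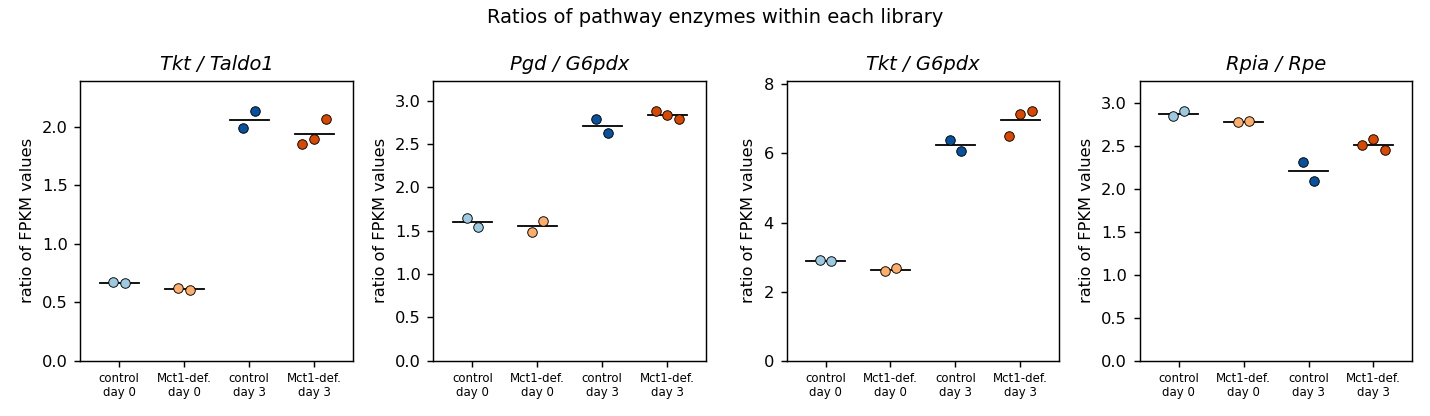
Ratios of FPKM values of 2 pathway enzymes within each library (linear axis from 0, 1 point per library, line at the group mean). *Tkt* over *Taldo1* was at most 0.670 on day 0 and at least 1.86 on day 3 in both genotypes.

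The second comparison asked whether the enzymes differed between *Mct1*-deficient and control B cells after activation. On day 3, 1 of the 8 members was called higher in *Mct1*-deficient B cells (6.03% of all tested genes were) and 0 were called lower (9.21% were), and 0 passed a log2 fold change of 0.5. The called gene was *Taldo1*, with 121 ± 4.39 FPKM in *Mct1*-deficient (SD, n = 3 libraries) and 104 ± 5.67 FPKM in control B cells (SD, n = 2 libraries). The 3 *Mct1*-deficient libraries (117 to 125 FPKM) lay above both control libraries (99.8 and 108 FPKM) and below all naive ones. This is a log2 fold change of 0.22 (SE 0.0479, adjusted p = 0.0119 by limma). Without control day 3 replicate 2, the lowest of all libraries for *Taldo1*, it was 0.16 and not called (adjusted p = 0.125), and over all alternatives the adjusted p ranged from 0.00365 to 0.125. The 12 myeloid markers summed to 17.1 and 18.8 FPKM in the control and to 23.3 to 27.4 FPKM in the *Mct1*-deficient libraries of day 3. Of the 12, 2 were called higher by limma and 0 were called lower. The 2 were *Lyz2* (11.5 and 10.0 against 16.8, 17.6 and 20.4 FPKM, log2 fold change 0.71) and *Adgre1* (0.68). The median of the 12 was 0.0067, and granulocyte markers such as *S100a9* (-0.82, adjusted p = 0.267) and *Ngp* (-0.62, adjusted p = 0.472) had values below 0 and were not called. The part of myeloid cells in the difference of *Taldo1* was not tested.

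*Tkt* and *Rpe* differed by less. For *Tkt* the *Mct1*-deficient libraries (225, 238 and 242 FPKM) lay above the control libraries (215 and 213 FPKM), with a log2 fold change of 0.13 (95% interval 0.04 to 0.23, adjusted p = 0.0615 by limma). It was called under quantile normalization (0.19, adjusted p = 0.0164), with libraries of the same total (0.14, adjusted p = 0.0456) and without *Mct1*-deficient day 3 replicate 1 (0.16, adjusted p = 0.0355), and its adjusted p ranged up to 0.240 over the alternatives. For *Rpe* the *Mct1*-deficient libraries (20.4 to 21.4 FPKM) lay below the control ones (22.3 and 24.1 FPKM), with a log2 fold change of -0.14 (-0.25 to -0.03, adjusted p = 0.0859). In none of the alternatives was *Rpe* called, with values from -0.20 to -0.09.

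Of the 4 genes of the oxidative branch, 0 were called between the genotypes on day 3. Most tested genes were not called either (6.03% were called higher and 9.21% lower). The log2 fold changes were -0.03 for *G6pdx* (95% interval -0.13 to 0.08), -0.02 for *H6pd* (-0.18 to 0.15), 0.06 for *Pgls* (-0.11 to 0.23) and 0.04 for *Pgd* (-0.05 to 0.13), with adjusted p of 0.566 or more by limma. *Rpia* was alike in this respect (0.04, -0.05 to 0.13, adjusted p = 0.526). Differences within these intervals could not be resolved with 3 libraries against 2.

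**Figure D4:**
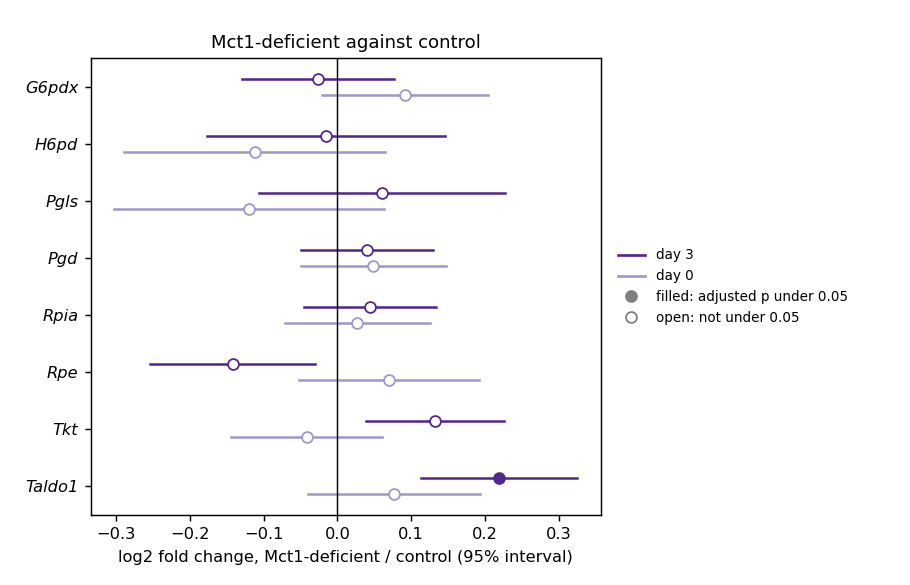
Log2 fold change of *Mct1*-deficient over control B cells for each pathway enzyme (rows) with its 95% interval from limma, on day 3 (dark) and day 0 (light); the filled point had an adjusted p under 0.05. *Taldo1* on day 3 (0.22) was the only call, and *Rpe* on day 3 (-0.14) had the most negative value that day.

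In naive B cells, 0 of 8 members were called higher (0.351% of all tested genes were) and 0 lower (0.0647% were) in *Mct1*-deficient libraries by limma. The log2 fold changes lay between -0.12 (*Pgls*, 95% interval -0.30 to 0.06) and 0.09 (*G6pdx*, -0.02 to 0.20), with adjusted p of 0.533 or more. The interaction of genotype and day tests whether the response to activation differed between the genotypes. It called 0 of 8 members higher (3.82% of all tested genes were) and 0 lower (5.61% were). The lowest adjusted p was that of *Rpe* (-0.21, standard error 0.0748, adjusted p = 0.107 by limma). That of *Tkt* was next (0.17, standard error 0.0627, adjusted p = 0.114). Neither was called, so a different rise in the 2 genotypes was not shown for either. For *Taldo1* the interaction was 0.14 (95% interval -0.01 to 0.30, adjusted p = 0.245), so its higher level in *Mct1*-deficient B cells on day 3 was not shown to be particular to that day. No member had the genotype difference on day 0 that *Taldo1* had on day 3, but the value of *Taldo1* on day 0 (0.08, -0.04 to 0.19) had the same sign. The naive *Mct1*-deficient libraries were not alike. Replicate 1 had *Ddx3y* at 31.1 FPKM and myeloid markers summing to 2354 FPKM, against 0.20 and 1242 FPKM in replicate 2. Both naive control libraries had *Ddx3y* at 0.24 FPKM or less. The part of sex and of myeloid cells in the day 0 and interaction values was not tested.

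The genes around the pathway were then examined in 4 lists. Their counts are to be read beside the shares of all tested genes, which were 37.0% higher and 47.5% lower for activation of control B cells, 36.4% and 49.1% in *Mct1*-deficient B cells, and 6.03% and 9.21% between the genotypes on day 3, and nothing particular to a list is drawn from them. Of 20 genes of neighbouring sugar phosphate reactions, 17 were tested, and activation of control B cells raised 9 and lowered 7, with a median log2 fold change of 0.49. Hexokinases make glucose 6-phosphate, the substrate of the pathway. *Hk2*, the inducible hexokinase, went from 4.10 and 3.82 FPKM to 17.9 and 17.2 FPKM in control B cells, a log2 fold change of 1.90. *Hk3*, a hexokinase typical of myeloid cells, went from 6.41 and 6.35 to 0.52 and 0.51 FPKM (-2.28), along with the myeloid markers. The phosphoglucomutase *Pgm1*, which links glucose 1-phosphate to glucose 6-phosphate, rose from 9.81 and 9.92 FPKM to 34.7 and 32.5 FPKM (1.67). The adjusted p of these 3 genes was at most 7.48e-08 by limma. In *Mct1*-deficient B cells the list had 10 higher and 6 lower. Between the genotypes on day 3, 1 of the 17 was called, *Pgm2l1* (0.24, adjusted p = 0.0478), which was named after its values were seen.

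A list for other sources of NADPH moved in both directions. It also held genes that do not themselves make NADPH, such as *Nadk*, *Nadk2* and *Mthfd1l*. Of 14 listed genes, 11 were tested, and activation of control B cells raised 6 and lowered 5, with a median log2 fold change of 0.44. The largest changes were in mitochondrial one-carbon metabolism. *Mthfd2*, a mitochondrial methylenetetrahydrofolate dehydrogenase, went from 10.7 and 11.2 FPKM to 92.0 and 90.2 FPKM in control B cells (log2 fold change 2.95). *Mthfd1l*, which makes formate in mitochondria, went from 13.1 and 12.4 to 37.4 and 38.7 FPKM (1.51). *Aldh1l2*, which yields mitochondrial NADPH, went from 0.34 and 0.10 to 2.89 and 2.87 FPKM (1.68). In *Mct1*-deficient B cells 6 genes of the list were higher and 4 lower after activation, and between the genotypes on day 3 it had 2 higher and 1 lower.

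The list of redox defence genes, only some of which use NADPH, and of regulators such as *Nfe2l2* (NRF2), held genes that rose and genes that fell. Of 20 listed genes, 17 were tested, 9 higher and 7 lower on day 3 in control B cells, with a median log2 fold change of 0.14. *Txn1*, thioredoxin, went from 48.0 and 48.6 to 244 and 218 FPKM (2.23). *Hmox1*, heme oxygenase, went from 143 and 131 to 13.5 and 14.2 FPKM (-3.21), and *Cat*, catalase, from 77.3 and 86.9 to 27.5 and 28.8 FPKM (-1.51). Both fell with the myeloid and erythroid markers, and the part of those cells in the change was not tested. Of the NADPH oxidase list, 6 of 10 genes were tested, with 2 higher and 3 lower in control B cells and a median of -0.19. The cytosolic subunit *Ncf4* fell by 1.85 on the log2 scale and *Ncf1* rose by 0.46. In *Mct1*-deficient B cells activation gave 9 higher and 8 lower genes in the redox list and 1 higher and 3 lower in the oxidase list. On day 3 the genotypes differed in 3 redox genes higher and 3 lower and in 1 oxidase gene higher and 1 lower, and in naive cells the 4 lists had 0 calls.

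**Figure D5:**
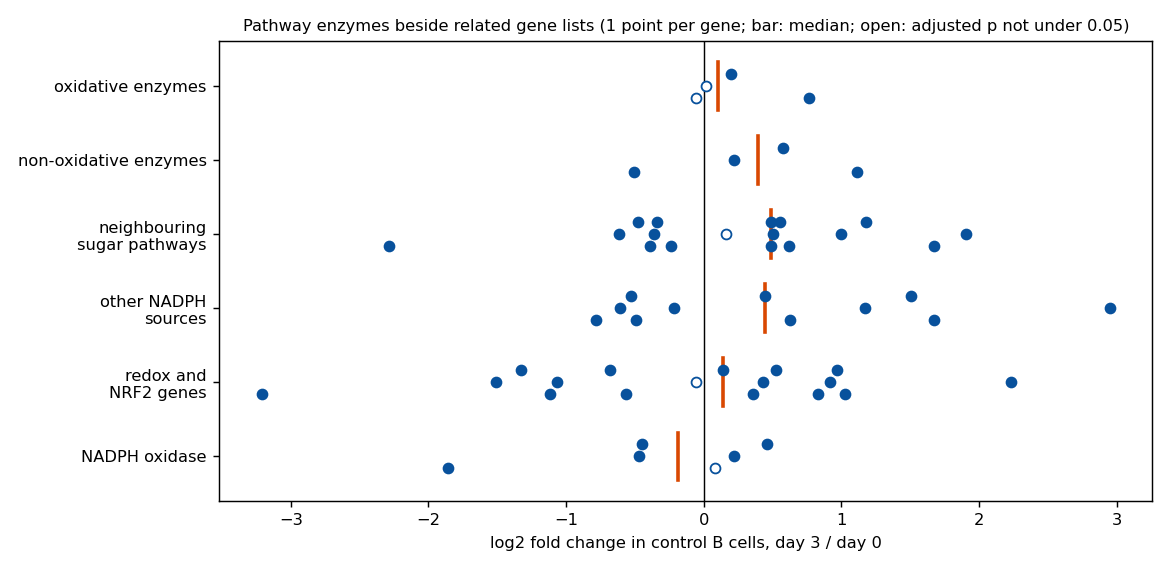
Log2 fold change of day 3 over day 0 in control B cells for the pathway enzymes of each branch and for 4 lists of related genes, 1 point per tested gene (vertical offset only separates points), with a bar at each list's median; open points did not have an adjusted p under 0.05. Each of the 4 related lists held genes that rose and genes that fell, and the medians of the oxidative and non-oxidative enzymes were 0.11 and 0.40.

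The members did not share 1 pattern. For each member, every other tested gene was ranked by the root mean square difference of its log2(FPKM + 1) values, centred on the mean of the gene, over the 9 libraries. The nearest gene to *Tkt* was *E2f1*, a cell cycle transcription factor (0.0401), and the nearest member, *Pgd*, ranked 1095 of 10822 (0.233). The nearest gene to *Pgd* was *Ebna1bp2* (0.0284), with *Rpe* as the nearest member at rank 1445. For *Taldo1* it was *Pgm2l1* (0.0439), and its nearest member, *G6pdx*, ranked 2980 (0.211). *G6pdx* was nearest to *Trim35* (0.0313), *H6pd* to *Mtf1* (0.0372), *Pgls* to *Ap2s1* (0.0447), *Rpia* to *Abi2* (0.0310) and *Rpe* to *Nudt9* (0.0255). *Abi2* was at only 1.20 to 1.76 FPKM, a level at which changes appear too small on this scale. The smallest difference between 2 members was that of *G6pdx* and *H6pd* (0.0938), and the lowest rank of a member was that of *Rpia* among the genes most like *Pgls* (349, difference 0.108). Members are few among the 10822 genes, so a gene outside the pathway would be nearest in most cases anyway. The ranks are given as a description, and nothing about the pathway is drawn from them.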

How the data were processed

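RNA sequencing of primary mouse B cells gave 9 libraries, grouped and numbered as in the labels. What the authors deposited were FPKM values, 1 per gene and library, with 2 decimals. Per the labels, the sequencing institute assembled and analysed the library data, and the submitters' processing notes name Bowtie2 and GRCm38 (mm10). The counter and the annotation are not given in the sources used here. The labels name TRNzol for the RNA extraction and the paper's methods a column kit. Low values showed no common step, so reads could not be recovered, depth is unknown and precision rests on 2 or 3 libraries in each group.

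The deposited FPKM were transformed to log2(FPKM + 1), a scale on which changes of low genes appear too small. Tests in limma 3.58.1 (R 4.3.3) covered the 10823 genes that averaged 1 FPKM or more, with a mean per group, an empirical Bayes trend and Benjamini-Hochberg adjustment over all tested genes. A gene was called at an adjusted p under 0.05. The comparisons were day 3 against day 0 in each genotype, the genotypes on each day, and their interaction. The procedure was tested on simulated data. Promoters were searched and values tabulated with pandas 2.3.3 in Python 3.11.15, and figures were drawn with matplotlib 3.10.9.

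The members, gene lists and tests were chosen with earlier results of these data known. Named were all 8 members in every comparison, the 3 called genes with the largest activation change of each related list, and any related gene past an adjusted p of 0.05 and a log2 fold change of 0.5 between the genotypes on day 3, of which there were none. The values of 1 gene that this rule names are not reported here. *Pgm2l1* and *Gsr* were picked once their values had been seen. Alternatives were pseudocounts of 0.1 and 5, no filter or a mean of at least 5 FPKM, a common library total, quantile normalization, median-of-ratios scaling, only the compared groups, a replicate block, no trend, log2 limits of 0.5 and 1, and each library left out. The libraries with Y-linked transcripts alone and a crossed pairing were added after the data were seen.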

Additional observations from a re-analysis of the deposited data

How the results depend on the processing

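Of the alternative values of the 8 members, 819 kept direction and call, 30 lost the call, 11 gained it and 28 changed sign. These counts are no measure of robustness, since many outcomes were fixed by the setting. The log2 limits reused the main fit, so they could remove calls but could not change a sign. The filters, the trend and leaving out a library of a group not compared left the fold change as it was. The counts of called members moved with scaling, and so did those over all 10823 tested genes. The counts of members are therefore not read as a result about the members. With libraries of the same total, 3 members were higher and 3 lower after activation in control B cells (3235 and 6018 of all tested genes were). With that scaling 2 members were lower after activation in *Mct1*-deficient B cells (6095 genes were). On day 3, 2 members were then higher in *Mct1*-deficient B cells (651 genes were). Quantile normalization gave 2 members lower after activation in *Mct1*-deficient B cells (4440 genes were). Between the genotypes on day 3 it gave 2 members higher (706 genes were). With a log2 limit of 0.5, activation gave 3 higher in control and, in *Mct1*-deficient B cells, 2 higher and 0 lower, and the genotypes on day 3 gave 0. With a limit of 1 these were 1 higher and 0 lower in control, and in *Mct1*-deficient B cells 1 higher and 0 lower, and 0. Among libraries with Y-linked transcripts, activation in *Mct1*-deficient B cells rests on 1 day 0 library assumed to vary like the others, so its calls are not counted here. Activation in control B cells, the genotypes on day 0 and the interaction could not be fitted among these libraries. Leaving out 1 library gave 1 to 2 lower after activation in *Mct1*-deficient B cells (2 without *Mct1*-deficient day 0 replicate 2) and 0 to 2 higher between the genotypes on day 3. Signs changed as follows, and the cause was not tested. With the same total, activation in control gave -0.18 for *G6pdx* and -0.0069 for *Pgls*, activation in *Mct1*-deficient B cells -0.12 for *H6pd*, and the interaction 0.016 for *Pgd*. Median-of-ratios scaling gave 0.13 for *H6pd* in control activation, 0.11 for *G6pdx* in *Mct1*-deficient activation and 2.95e-04 for *H6pd* between the genotypes on day 3. Quantile normalization gave -0.013 for *G6pdx*, 0.16 for *H6pd* and -0.060 for *Pgls* in control activation, and 0.014 for *H6pd* between the genotypes on day 3. The replicate block, whose numbers did not pair the libraries (correlations of deviations from -0.122 to 0.0642), gave 0.010 for the *Pgd* interaction, lost the *Pgls* call in control activation (adjusted p = 0.0564), and changed no count of called members by over 1.5 times. The crossed pairing, chosen after the negative control correlation was seen, gave 5 members higher and 1 lower after activation in each genotype and 1 higher between the genotypes on day 3, and turned the *Pgd* interaction to 0.010. With 1 library left out, values whose sign changed ranged, for activation in control B cells, from -0.023 to 0.054 (*G6pdx*) and from -0.13 to 0.0099 (*H6pd*). They ranged from -0.013 to 0.080 for *H6pd* in *Mct1*-deficient activation, and between the genotypes on day 3 from -0.058 to 0.0058 (*G6pdx*), from -0.067 to 0.0315 (*H6pd*) and from -0.052 to 0.17 (*Pgls*). On day 0 *Rpia* ranged from -0.0042 to 0.058, and the interaction from -0.014 to 0.048 (*Rpia*) and from -0.037 to 0.010 (*Pgd*). None of the values that changed sign was called, except *G6pdx* with the same total (adjusted p = 0.0118). Depth is unknown, so its limit on low genes could not be given.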

Other observations

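*Gsr*, glutathione reductase, which uses NADPH to restore reduced glutathione, had the redox list's largest difference between the genotypes on day 3, and it was picked after its values were seen. It was at 16.2 and 21.6 FPKM in control and 25.6 and 20.1 FPKM in *Mct1*-deficient libraries on day 0. On day 3 it was at 8.07 and 8.11 FPKM in control and at 4.98, 5.87 and 5.51 FPKM in *Mct1*-deficient libraries. It fell with activation in both genotypes, and on day 3 every *Mct1*-deficient library lay below both control libraries. The log2 fold change between the genotypes was -0.50 on day 3 (standard error 0.12, adjusted p = 0.0190 by limma) and 0.27 on day 0 (adjusted p = 0.469), and the interaction of genotype and day was -0.76 (adjusted p = 0.0251). The interaction includes the day 0 difference, which was not called. The highest day 0 value was in *Mct1*-deficient replicate 1, whose myeloid markers summed to 2354 FPKM. The lowest was in control replicate 1, where that sum was 1161 FPKM. The part of myeloid cells in the values of *Gsr* was not tested.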
